A study of Mus musculus with 6 samples.

Results

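Platelet-derived growth factors (PDGFs) and their receptors were followed in mouse embryonic fibroblasts (MEFs), the connective tissue cells grown from embryos. The genes were taken by symbol from the deposited count table: the ligand genes Pdgfa, Pdgfb, Pdgfc and Pdgfd, the receptor genes Pdgfra and Pdgfrb, and the receptor-like gene Pdgfrl. These 7 genes are among the 17092 genes of the table, and all 7 had enough counts to be tested, as 7 of 13075 tested genes. The study compared MEFs of wild-type (WT) mice with MEFs of mice lacking Aff3ir-ORF2, a reading frame of Aff3ir, a gene nested within Aff3, by RNA sequencing of 3 libraries per genotype. The series text spells the mutant AFFEir-ORF2-/-, and it is written Aff3ir-ORF2-/-, or mutant, here. The mice were global knockouts of Aff3ir-ORF2, so every cell of the embryo carried the deletion. No treatment or age of the cultures is given in the labels. Neither the labels nor the methods say whether the libraries of a genotype came from separate embryos or cultures, so p-values measure the spread between these libraries, which may be technical.

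PDGFs are dimeric growth factors that drive the division and migration of fibroblasts, pericytes and smooth muscle cells. PDGF-A and PDGF-B are made active inside the producing cell, whereas PDGF-C and PDGF-D carry a CUB domain that must be cut off outside it. The receptor PDGFRα binds A, B and C chains, and PDGFRβ binds B and D chains. Both are class III receptor tyrosine kinases, and both are commonly present on cultured fibroblasts. PDGF-B is mainly made by endothelial cells, megakaryocytes and macrophages, and serum used in culture holds PDGF released by platelets. Pdgfrl encodes a secreted protein that resembles the extracellular part of a PDGF receptor and has no kinase domain.

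The stretch around the start of transcription is shown for Pdgfa, a ligand that differed between the genotypes by over 1.5-fold, for Pdgfd, which differed by less, and for Pdgfc and Pdgfra, which did not pass the test. The sequences are RefSeq promoters of build GRCm38.p6, from 250 bases before to 50 bases after the start, 5′ to 3′ on the strand of the gene. A promoter was found for 4 of the 7 genes, with 2 starts for Pdgfa. The chromosome of Pdgfrb was left out of this lookup, so the Pdgfrb promoter was not examined. The submitters' processing notes name the older build mm8, so the coordinates belong to the sequences and not to the counts. Capitals mark a match to one of these motifs. The GC box was searched as GGGCGG. The box that TBP binds was searched as TATAAA. The CArG box is the element bound by serum response factor. The EGR motif GCGNGGGCG and the AP-1 motif TGANTCA were searched too, all on both strands, and a GC box can share letters with an EGR motif.
Pdgfa, start 1, chr5:138994232-138994531, minus strand: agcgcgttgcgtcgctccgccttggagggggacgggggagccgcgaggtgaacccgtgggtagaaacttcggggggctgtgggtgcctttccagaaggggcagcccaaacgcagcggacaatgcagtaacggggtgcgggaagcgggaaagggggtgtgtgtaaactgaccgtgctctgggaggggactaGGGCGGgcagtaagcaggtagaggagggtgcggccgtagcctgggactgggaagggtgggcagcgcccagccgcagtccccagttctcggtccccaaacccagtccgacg
Pdgfa, start 2, chr5:138994895-138995194, minus strand: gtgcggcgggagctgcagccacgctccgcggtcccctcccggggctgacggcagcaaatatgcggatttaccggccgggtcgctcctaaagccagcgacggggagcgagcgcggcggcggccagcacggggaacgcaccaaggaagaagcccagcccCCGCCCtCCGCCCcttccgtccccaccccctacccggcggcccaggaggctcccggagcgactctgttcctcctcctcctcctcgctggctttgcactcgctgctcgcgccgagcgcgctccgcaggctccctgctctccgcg
Pdgfc, chr3:81036166-81036465, plus strand: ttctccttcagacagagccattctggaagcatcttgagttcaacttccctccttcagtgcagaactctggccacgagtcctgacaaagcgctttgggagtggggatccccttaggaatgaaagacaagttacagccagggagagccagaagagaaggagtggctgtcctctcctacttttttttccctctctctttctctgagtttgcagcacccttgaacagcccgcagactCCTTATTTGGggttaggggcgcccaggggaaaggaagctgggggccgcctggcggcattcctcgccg
Pdgfd, chr9:6168236-6168535, plus strand: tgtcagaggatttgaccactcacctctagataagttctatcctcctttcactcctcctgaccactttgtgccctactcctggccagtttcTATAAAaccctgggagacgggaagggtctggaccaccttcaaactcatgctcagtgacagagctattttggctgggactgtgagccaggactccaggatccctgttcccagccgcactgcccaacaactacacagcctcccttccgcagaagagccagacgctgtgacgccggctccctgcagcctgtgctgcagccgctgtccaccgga
Pdgfra, chr5:75152001-75152300, plus strand: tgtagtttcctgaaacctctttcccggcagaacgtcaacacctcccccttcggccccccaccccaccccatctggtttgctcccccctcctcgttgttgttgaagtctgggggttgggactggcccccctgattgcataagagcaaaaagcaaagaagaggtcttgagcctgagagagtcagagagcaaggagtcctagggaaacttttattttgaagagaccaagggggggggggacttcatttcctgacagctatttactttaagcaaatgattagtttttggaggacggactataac

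The promoters at both Pdgfa starts were rich in CpG, with 24 and 37 CpG dinucleotides and a GC content of 67.0% and 73.3%, against a median of 7 CpG and 52.7% GC over all 32851 RefSeq promoters. The other 3 promoters had 5 to 8 CpG. Each Pdgfa start had a GC box, the first at position -60 from the start and the second at -93 and -86, and 35.7% of all promoters held this motif. The Pdgfc promoter held a CArG box at -17, found in 1.63% of all promoters. The Pdgfd promoter held a TATA box at -160, outside the usual place close to the start, and 13.6% of all promoters held these letters. None of the 5 promoters held the EGR motif (5.55% of all promoters) or the AP-1 motif (7.81%), and the Pdgfra promoter held none of the 5 motifs. These are matches of letters in the windows only.

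Of the 7 genes, 4 were higher in the mutant by edgeR's quasi-likelihood test at a Benjamini-Hochberg adjusted p under 0.05, and 0 were lower. Over all tested genes 29.4% were higher and 27.6% were lower at this threshold. The 4 genes were Pdgfa, Pdgfb, Pdgfd and Pdgfrb. Pdgfa, Pdgfb and Pdgfrb also differed by at least 1.5-fold, which 14.3% of tested genes did upwards and 7.32% downwards. The same 4 genes did not overlap between the genotypes, as was the case for 66.0% of tested genes. The median log2 fold change of the 7 genes was 0.28, against 0.0056 over all tested genes. Pdgfb had too few WT counts to have been tested unless it was higher in the mutant, so its direction was fixed by the filter. Without it, 3 of 6 genes were higher, 2 of them by at least 1.5-fold, and the median was 0.13.

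**Figure D1:**
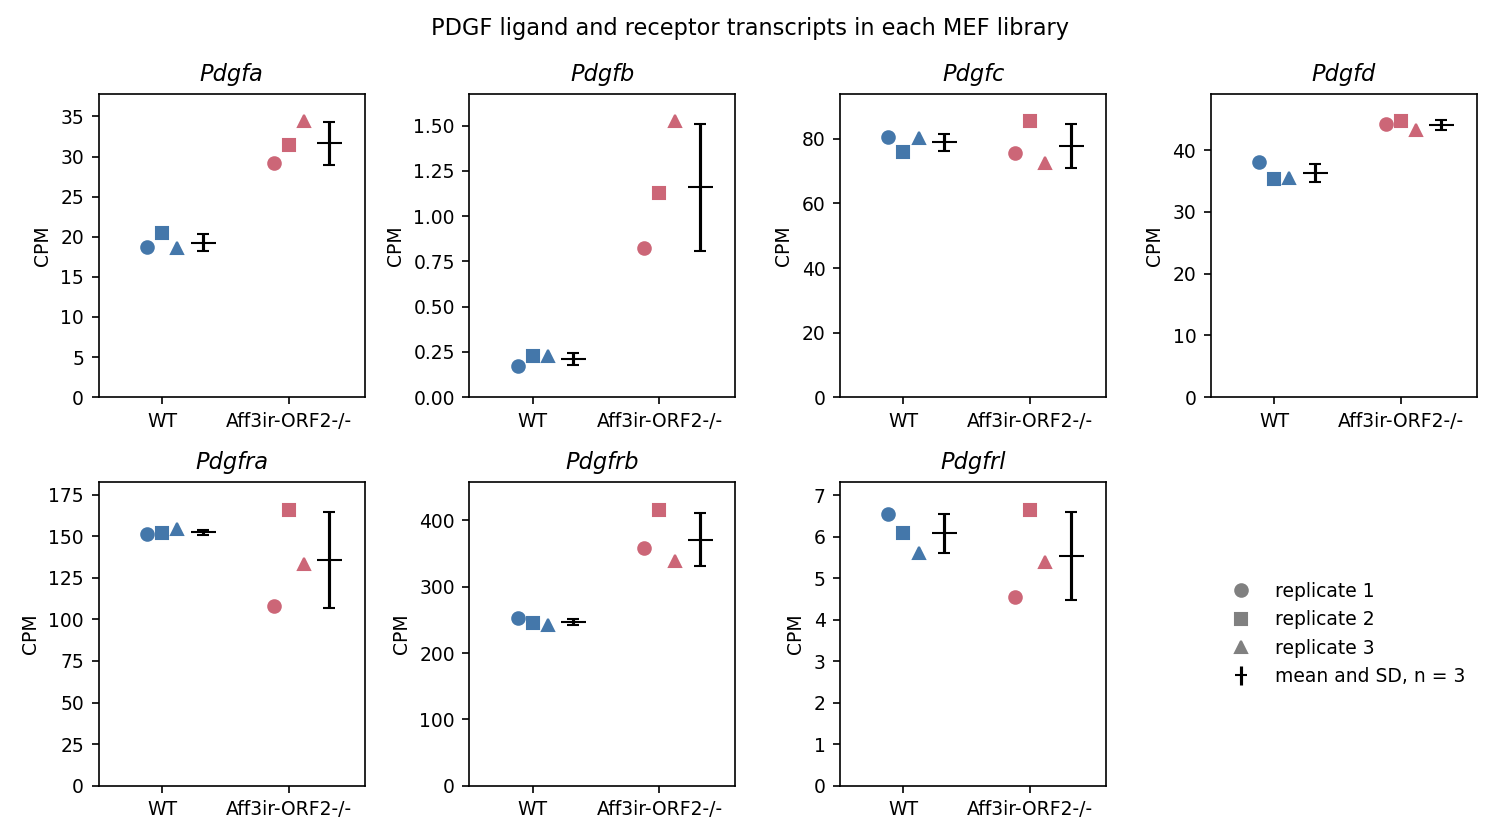
Each panel plots one PDGF gene in CPM (counts relative to the library total, TMM-scaled, axis from 0) in the 3 WT (blue) and 3 Aff3ir-ORF2-/- (red) libraries, with the mean and SD at the right of each group. Pdgfa, Pdgfb, Pdgfd and Pdgfrb lie apart between the genotypes, whereas Pdgfc, Pdgfra and Pdgfrl overlap.

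Among the ligands, Pdgfa (NCBI Gene 18590) encodes the A chain, a ligand of PDGFRα. It had 324, 360 and 325 counts in the WT libraries and 531, 585 and 632 in mutant libraries. Every mutant library was above every WT library. On the scale of CPM, the counts of a gene relative to the total count of its library, the level rose from 19.3 ± 1.03 to 31.7 ± 2.65 (SD, n = 3), a 1.64-fold difference with a 95% interval of 1.45 to 1.86 and an adjusted p of 1e-04. Over the alternatives tried, the log2 fold change stayed between 0.65 and 0.77.

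Pdgfb (Gene 18591) encodes the B chain, which binds both receptors. WT libraries had 3, 4 and 4 counts of it, close to the detection floor of 3 counts, and Aff3ir-ORF2-/- libraries had 15, 21 and 28. The genotypes did not overlap, but the gene passed the filter on low counts only through the Aff3ir-ORF2-/- libraries, so that a gene with this WT level could be tested only if it was higher in the mutant. The level rose from 0.210 ± 0.0313 to 1.16 ± 0.352 CPM (SD, n = 3), and the fitted fold was 5.37 with a wide 95% interval of 2.87 to 10.03 (adjusted p 9.12e-04).

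Pdgfc (Gene 54635) encodes a CUB-domain ligand of PDGFRα. Its counts were 1392, 1335 and 1404 in WT libraries, against 1380, 1594 and 1330 in mutant libraries. The highest and the lowest value both belonged to the mutant, and the genotypes overlapped. The log2 fold change was -0.02 with a 95% interval of -0.17 to 0.13 (adjusted p 0.815), so that a 1.5-fold difference in either direction lay outside the interval. Its sign turned to 0.02 with upper quartile scaling.

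Pdgfd (Gene 71785) encodes the CUB-domain ligand of PDGFRβ. It had 656, 621 and 621 counts in WT and 807, 833 and 793 in mutant libraries. All mutant libraries were above all WT libraries, and they lay close together. The level rose from 36.3 ± 1.51 to 44.1 ± 0.774 CPM (SD, n = 3), by 1.21-fold (log2 fold change 0.28, SE 0.05, adjusted p 0.00213), which is under 1.5-fold.

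Among the receptors, Pdgfra (Gene 18595), the receptor for A, B and C chains, had 2606, 2672 and 2696 counts in WT and 1974, 3095 and 2447 in mutant libraries. The WT libraries were nearly alike at 151, 152 and 154 CPM, while mutant replicates 1 and 3 lay below them at 108 and 133 CPM and replicate 2 lay above them at 166 CPM. The log2 fold change was -0.17 with a 95% interval of -0.45 to 0.12 (adjusted p 0.287). Without mutant replicate 2 it was -0.34 with an adjusted p of 0.00104, which passes the threshold, and without mutant replicate 1 it was -0.03 with an adjusted p of 0.788. The value for Pdgfra therefore depends on which mutant library is left out.

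Pdgfrb (Gene 18596), the receptor for B and D chains, had 4353, 4320 and 4243 counts in WT and 6522, 7760 and 6227 in mutant libraries. All mutant libraries were above all WT libraries, with replicate 2 the highest. The level rose from 247 ± 4.93 to 371 ± 40.2 CPM (SD, n = 3), with a log2 fold change of 0.59 (SE 0.07, adjusted p 1.81e-04). The fold lay at the 1.5-fold threshold itself. It fell under the threshold at a log2 fold change of 0.49 without mutant replicate 2, 0.58 without WT replicate 2 and 0.57 without WT replicate 3, with adjusted p values of 4.94e-07, 0.00194 and 0.00209.

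Pdgfrl (Gene 68797) had 113, 107 and 98 counts in WT and 83, 124 and 99 in mutant libraries. The groups overlapped, and mutant replicate 2 was again the highest library of its group. The log2 fold change was -0.13 with a 95% interval of -0.49 to 0.22 (adjusted p 0.486), so that a 1.5-fold difference in either direction lay outside the interval.

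**Figure D2:**
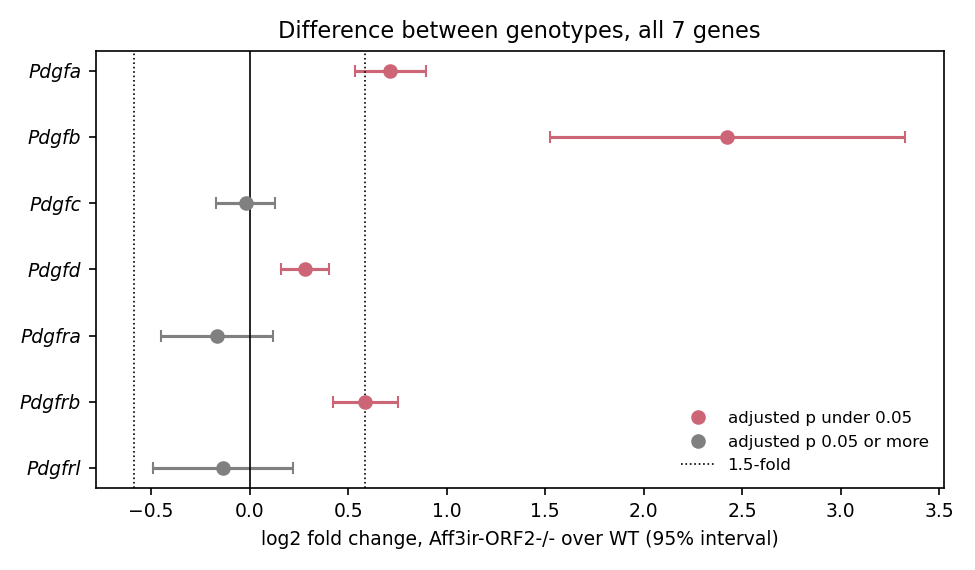
Points give the log2 fold change of each PDGF gene, Aff3ir-ORF2-/- over WT, and bars its 95% interval from edgeR (3 libraries per genotype). Red marks an adjusted p under 0.05, and dotted lines mark 1.5-fold. Pdgfb has the widest interval, and the estimate for Pdgfrb lies on the dotted line.

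The balance of the receptors was compared within each library, where the scaling between libraries plays no part. There were 1.67, 1.62 and 1.57 Pdgfrb counts per Pdgfra count in WT libraries. The mutant libraries had 3.30, 2.51 and 2.54 in replicates 1, 2 and 3. All mutant libraries lay above all WT libraries, including replicate 2, in which both receptor genes had their highest counts of the mutant group. On the log2 scale the ratio went from 0.70 ± 0.04 to 1.47 ± 0.22 (SD, n = 3), a difference of 0.77 that stayed between 0.64 and 0.84 when any library was left out. Among the ligands, the log2 ratio of Pdgfa to Pdgfc counts went from -2.04 ± 0.12 to -1.30 ± 0.20, and that of Pdgfd to Pdgfc from -1.12 ± 0.05 to -0.82 ± 0.10. These ratios are descriptions and were not tested.

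Between genes, levels were compared as CPM per kilobase of the longest annotated transcript (GENCODE M21). In WT MEFs the order was Pdgfrb at 45.5 ± 0.908 (SD, n = 3), then Pdgfc at 22.4 ± 0.757 and Pdgfra at 22.3 ± 0.240, which did not differ beyond their spread. Pdgfd followed at 11.6 ± 0.483, Pdgfa at 9.36 ± 0.501, Pdgfrl at 3.93 ± 0.305 and Pdgfb at 0.0714 ± 0.0106. Apart from Pdgfc and Pdgfra, neighbours in this order did not overlap. In Aff3ir-ORF2-/- MEFs Pdgfrb stood at 68.4 ± 7.42 and again came first. There Pdgfa, at 15.4 ± 1.29, and Pdgfd, at 14.1 ± 0.247, overlapped, as did Pdgfc at 22.1 ± 1.93 and Pdgfra at 19.9 ± 4.23. The order depends on the transcript taken as the length. With the median transcript length, Pdgfra was at 53.0 in WT, above Pdgfrb at 45.6, and Pdgfa at 13.3 was above Pdgfd at 12.7.

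**Figure D3:**
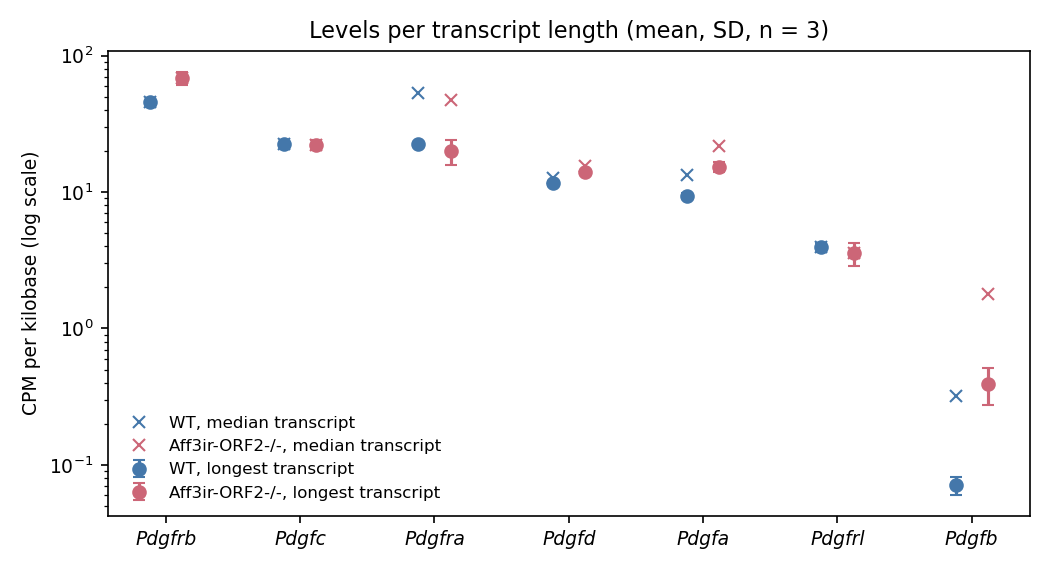
The vertical axis gives CPM per kilobase on a log scale for the PDGF genes, ordered by their WT level. Circles with bars are the mean and SD of 3 libraries with the longest transcript as length, and crosses are means with the median transcript. Pdgfrb is first and Pdgfb last with the longest transcript, and Pdgfra, Pdgfa and Pdgfb move most with the choice of transcript.

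The libraries themselves differed in more than the PDGF genes. Total counts were 17435133 to 17726034 in WT and 18209421 to 18252330 in Aff3ir-ORF2-/- libraries. The common biological coefficient of variation, the spread between libraries beyond counting error, was 0.0185 in WT and 0.0998 in mutant libraries, and 0.0641 in the mutant without replicate 2. Counts of Aff3, the gene that Aff3ir is nested in, were 406, 406 and 418 in WT and 229, 186 and 209 in mutant libraries (log2 fold change -1.06, adjusted p 2.42e-05). Aff3ir itself was not analysed here. All 12 fibroblast markers were measured, led by Col1a1 at 7363 CPM in WT.

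Markers of some other cell types that make PDGFs or carry their receptors differed between the genotypes. All 12 macrophage markers were higher in the mutant, as were 29.4% of all tested genes. Their summed level was 18.9 to 21.8 CPM in WT and 1236 to 2103 CPM in Aff3ir-ORF2-/- libraries. Of the 12, C1qa and C1qb were at 0 in every WT library, and Spi1, Cx3cr1, Trem2 and Tyrobp had 1 to 6 WT counts. Genes this low in WT could be tested only if higher in the mutant, so the filter fixed their direction. Where each library had to reach 10 counts, 5 macrophage markers were higher past both thresholds, as were 1398 of all 12174 genes tested there. Lyz2, which encodes lysozyme, had 14471, 20237 and 25195 counts in mutant replicates 1, 2 and 3. This order of the mutant libraries in CPM was that of 9 of the 12 macrophage markers, of Pdgfb and Pdgfa (15, 21 and 28 and 531, 585 and 632 counts), and of 12.4% of all tested genes. The part of macrophage RNA in the Pdgfb and Pdgfa levels was not tested.

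Of the 8 platelet and megakaryocyte markers 4 were tested, and 1 was higher, while 29.4% of all tested genes were higher. It was Pf4, with 1, 0 and 0 counts in WT and 18, 22 and 53 in mutant libraries. Pf4 could be tested only if it was higher in the mutant, so its direction was fixed by the filter. Ppbp, the platelet marker with the highest level, had 144, 120 and 158 counts in WT and 209, 102 and 355 in mutant libraries (adjusted p 0.208), and without mutant replicate 2 its log2 fold change was 0.93 with an adjusted p of 0.0015. The defining platelet genes Gp9 and Treml1 had at most 2 counts in any library. The summed level of the platelet list was 10.3 to 14.1 CPM in WT and 11.9 to 27.1 CPM in the mutant. Of 9 endothelial markers 5 were tested, with Vwf, Erg and Kdr higher and Cdh5 lower. Among all tested genes 29.4% were higher and 27.6% lower. Erg, with 5, 3 and 7 WT counts, could likewise be tested only if higher in the mutant. The Cdh5 call was lost without WT replicates 2 or 3 or mutant replicates 1 or 2 (adjusted p 0.0556 to 0.107) and by DESeq2 (0.131). Pecam1, which defines the type, had 2, 5 and 5 counts in WT and 2, 3 and 4 in mutant libraries. Their summed level was 7.94 to 8.87 CPM in WT and 16.5 to 21.3 CPM in the mutant. Bulk libraries cannot tell more cells of a type from more RNA per cell.

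Markers of mural cells, the pericytes and smooth muscle cells that carry PDGFRβ on vessels, were mostly higher too. Of 8 tested pericyte markers (of 11) 6 rose and 0 fell, with a median log2 fold change of 1.31, while 29.4% of all tested genes rose and 27.6% fell. The 6 that rose included Des (desmin, 2.14), Anpep (1.67) and Rgs5 (3.09, from 7, 4 and 4 counts to 47, 59 and 32). Rgs5 passed the filter only through the mutant libraries, which fixed its direction. Anpep had 1090, 1321 and 1570 counts in mutant replicates 1, 2 and 3. This was the order of 9 of the 12 macrophage markers and of 12.4% of all tested genes, and the part of macrophage RNA in the Anpep level was not tested. Of the untested markers, Kcnj8 had 6, 2 and 3 counts in WT and 5, 4 and 7 in mutant libraries. Vtn and Higd1b were at 0 in every WT library and had at most 2 counts in the mutant. Of 8 smooth muscle markers 6 rose and 1 fell (median 0.75), among them Myh11 (3.29), Cnn1 (1.71) and Acta2 (0.84), while Smtn fell by 0.45 on the log2 scale. Within the mutant, Pdgfrb was highest in replicate 2, as were 36.5% of all tested genes. The same held for 5 of the 8 tested pericyte markers, 8 of the 12 fibroblast markers and 1 of the 8 smooth muscle markers, Myh11. Whether a change in cell composition has a part in the Pdgfrb level was not tested.

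Fibroblast markers did not move together. Of the 12, 4 rose and 3 fell by adjusted p, with a median log2 fold change of 0.08. This split was close to that over all tested genes, of which 29.4% were higher and 27.6% lower. Pdpn (podoplanin), Lum (lumican), Prrx1 and Dcn (decorin) rose by 0.46, 2.17, 0.27 and 0.65 on the log2 scale, and Vim (vimentin), Col1a1 and Col1a2 fell by 0.39, 0.49 and 0.41. The Dcn call was lost without any WT library (adjusted p 0.0796 to 0.0866), and the Col1a2 call without any WT library or mutant replicate 1 (0.0546 to 0.0671). Mutant replicate 2 was the highest library of its group in CPM for 8 of the 12 fibroblast markers and for 36.5% of all tested genes. Among them it had the most counts of several matrix genes, with 728, 1917 and 1132 of Lum, 2245, 4510 and 2521 of Dcn and 10648, 28211 and 15093 of Col3a1 in replicates 1, 2 and 3. Without replicate 2 the log2 fold change of Col3a1 was -0.45 (adjusted p 0.00228). The same library was highest for Pdgfra (1974, 3095 and 2447), Pdgfrb, Pdgfc, Pdgfd and Pdgfrl, that is, for 5 of the 7 PDGF genes. The Pdgfra and Pdgfrl orders were those of Lum and of 17.0% of all tested genes. Its part in these levels was not tested.

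**Figure D4:**
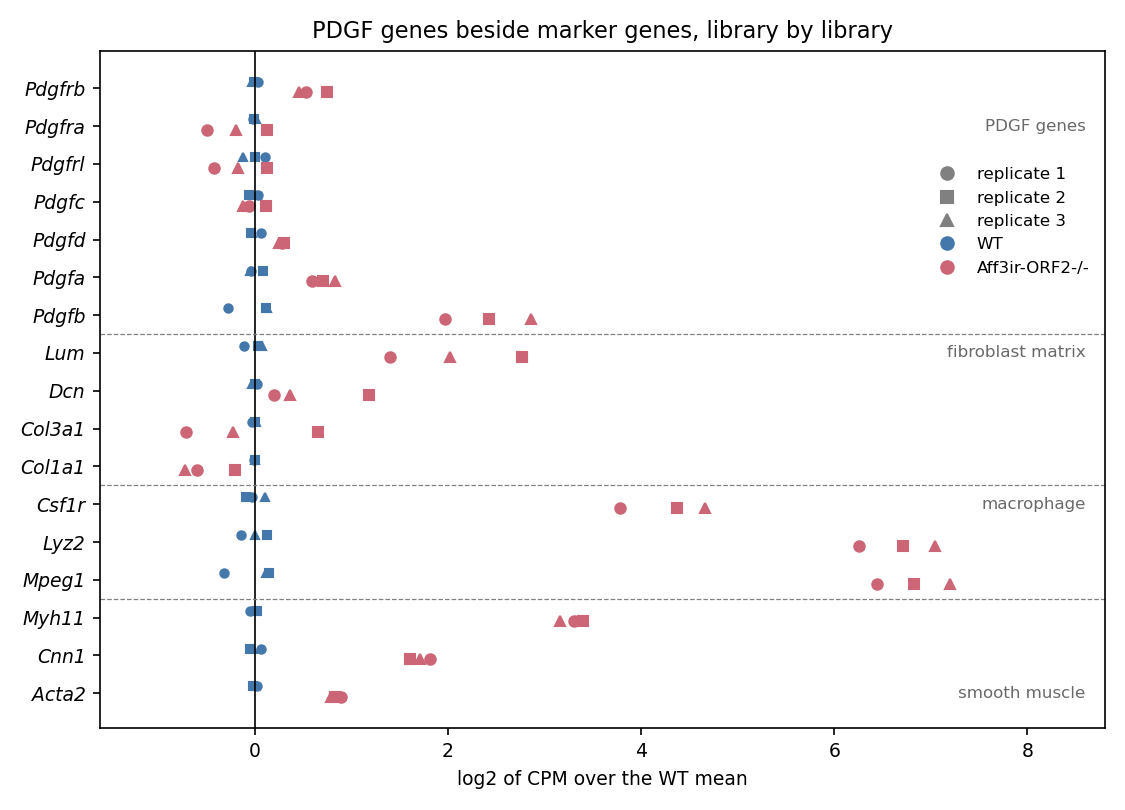
The horizontal axis gives log2 of the CPM in each library over the WT mean, for the PDGF genes and for selected fibroblast matrix, macrophage and smooth muscle genes, with WT in blue and Aff3ir-ORF2-/- in red and the marker shape giving the replicate. Replicate 2 (squares) is the rightmost mutant library for Pdgfra, Pdgfrl, Pdgfc, Pdgfd, Pdgfrb, Lum, Dcn and Col3a1, whereas replicate 3 (triangles) is the rightmost for Pdgfa, Pdgfb, Csf1r, Lyz2 and Mpeg1.

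The proteins that act with PDGFs were described by lists of genes of the pathway. The counts of each list stand beside 29.4% higher and 27.6% lower over all tested genes at the same adjusted p. Of the 10 genes of proteases and regulators that process PDGFs, 9 were tested, with 1 higher and 3 lower. Pcsk7 and Furin encode convertases that cut proprotein chains, and they had log2 fold changes of -0.99 (adjusted p 2.99e-06) and -0.31 (adjusted p 0.00177). Plaur, the urokinase receptor, fell by 0.78 on the log2 scale. St14 (matriptase) was higher by 2.30 from only 3, 8 and 2 WT counts, and it could be tested only if higher in the mutant. Plasminogen activators, which can cut CUB-domain ligands, did not pass the test. Plat (tissue plasminogen activator) had 1581, 1625 and 1563 counts in WT and 1294, 2513 and 925 in mutant libraries, and Plau (urokinase) had a log2 fold change of 0.06. Without mutant replicate 2, the Plat difference was -0.59 with an adjusted p of 4.02e-04 and that of Plau 0.22 with an adjusted p of 0.0241.

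All 12 genes of PDGF-binding and coreceptor proteins were tested, and 7 rose and 0 fell. Only Nrp1 (neuropilin 1, which binds several growth factors) passed 1.5-fold, at a log2 fold change of 0.63 (adjusted p 1.19e-04), and it fell just under that fold, at 0.58, without mutant replicate 1 or 3. Cspg4 (NG2, a proteoglycan on pericytes that binds PDGF-AA) was higher by 0.38, and the integrin chains Itgb3 and Itgav by 0.29 and 0.22. Thbs1 had a log2 fold change of 0.14, and its call was lost when any WT library or mutant replicate 1 was left out (adjusted p 0.0850 to 0.175). Nrp2, also at 0.14, lost its call without any WT library and without mutant replicates 1 or 2 (adjusted p 0.0624 to 0.151). Sparc, a matrix protein that binds PDGF chains, was at 0.08 (adjusted p 0.359).

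The other class III receptor kinases and their ligands were at very different levels. Csf1r, whose product is the receptor of macrophage growth factor, rose from 43, 42 and 48 to 637, 979 and 1185 counts (log2 fold change 4.31), and is also a macrophage marker. Kitl, the ligand of KIT, fell by 1.17 on the log2 scale (adjusted p 2.25e-04). Csf1 was at 0.15 (adjusted p 0.329), and without mutant replicate 2 at 0.29 with an adjusted p of 5.15e-06. Kit had 1, 2 and 2 counts in WT and 5, 3 and 4 in mutant libraries, and it and Flt3 were not tested.

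Of 24 genes of receptor-proximal signalling, 10 rose, 1 fell and 13 did not pass the test, while 29.4% of all tested genes rose and 27.6% fell. Stat3, a transcription factor activated by many receptors, had the smallest adjusted p of the list, with 3246, 3122 and 3212 counts in WT and 4964, 5478 and 5163 in mutant libraries (log2 fold change 0.63, adjusted p 1.28e-05). Pik3r1, the p85 regulatory subunit of PI3-kinase that binds phosphorylated PDGF receptors, was higher by 1.07, and the adaptor gene Nck1 by 0.60. Fyn, a kinase of the Src family, fell by 0.44 on the log2 scale. Crk was higher by 0.19, and Ptpn11 was at 0.05 (adjusted p 0.396), or 0.09 with an adjusted p of 0.0212 without mutant replicate 2.

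Of 15 negative regulators, 4 rose and 7 fell, while 29.4% of all tested genes rose and 27.6% fell. Cblb, a ubiquitin ligase that marks receptors for removal, fell by 0.57 on the log2 scale, and Dusp6, a phosphatase of ERK, fell by 0.92. Spry4 and Spry2, feedback inhibitors of the ERK pathway, fell by 0.91 and 0.75. Ptprj, a phosphatase that acts on PDGFRβ, was higher by 1.12, and Socs3 by 0.89. The call for Cbl (0.13) was lost without WT replicates 1 or 2 or mutant replicates 1 or 3 (adjusted p 0.0510 to 0.118), and that for Rasa1 (0.29, also in the signalling list) without WT replicate 1 (0.0527).

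Genes known to be induced within minutes to hours of PDGF or serum addition were mostly lower. Of 21 such early genes, 18 fell, 2 rose and 1 did not pass the test, and the median log2 fold change was -1.03. All 18 also passed 1.5-fold. Of all tested genes 29.4% rose and 27.6% fell, and 7.32% fell by at least 1.5-fold. Egr1, a zinc-finger factor, had 6445, 6662 and 5595 counts in WT and 846, 800 and 1018 in mutant libraries (log2 fold change -2.89, adjusted p 5.26e-07). Every mutant library lay below every WT library for Egr1 and for Egr2 (-3.57), Egr3 (-3.47) and Fosb (-3.62). The genotypes did not overlap, in either direction, for 66.0% of all tested genes. Ptgs2 (-1.13) and Odc1 (-0.79), which encode cyclooxygenase 2 and ornithine decarboxylase, were lower as well. The exceptions were the chemokine genes Ccl2 and Ccl7, which rose by 0.64 and 0.37, and Ier3 at -0.26 (adjusted p 0.189), which without mutant replicate 3 was at -0.46 with an adjusted p of 0.00783. These genes respond to many stimuli, and PDGF receptor activity was not measured in these libraries.

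**Figure D5:**
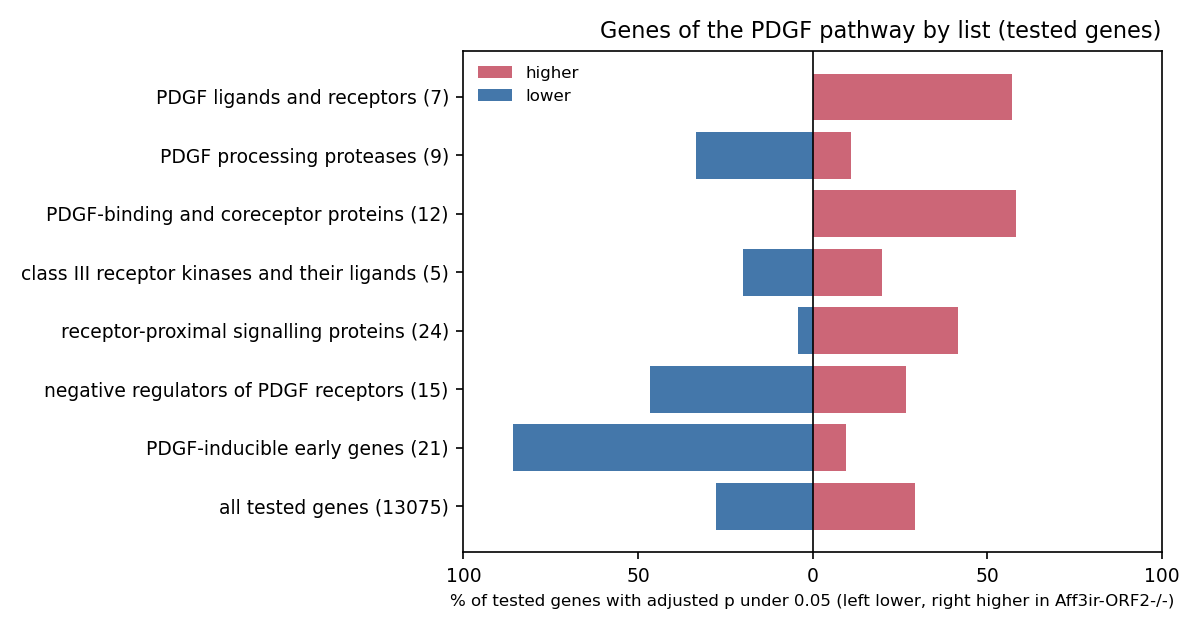
Bars give the percentage of tested genes of each list, with the number tested in brackets, that were higher (red, right) or lower (blue, left) in the mutant by edgeR at an adjusted p under 0.05, with all 13075 tested genes as the last bar. The PDGF genes and the coreceptor list have bars to the right only, and the early genes lie mostly to the left.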

How the data were processed

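RNA-seq of WT and Aff3ir-ORF2-/- MEFs (2 groups of 3 libraries) was analysed. The authors filtered paired-end DNBSEQ reads with SOAPnuke and deposited estimated counts for each gene and library in a single table, with no normalization. The submitters' processing notes name build mm8. The aligner, the counting tool and the annotation are not given in the sources used here, nor is the use of strand. The labels name Trizol and the methods the MagicPure Total RNA Kit for RNA extraction.

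The estimated counts, of which 10.6% to 11.3% per library were not whole numbers, were rounded. Totals were 17435133 to 18252330 counts, where 3 counts, the floor used, are 0.161 to 0.174 CPM. This floor covers counting error only. In edgeR 4.0.16, filterByExpr (at least 10 counts, total of at least 15) kept 13075 genes, libraries were scaled by TMM, and the genotypes were compared by the quasi-likelihood test with no covariate. P-values were adjusted by Benjamini-Hochberg over all 13075 tested genes, and intervals are 95%. Calls needed an adjusted p under 0.05 and, where stated, 1.5-fold. R 4.3.3, limma 3.58.1, DESeq2 1.42.0, Python 3.11.15 and matplotlib 3.10.9 were used. The scripts were tested on simulated data.

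The PDGF genes and the other gene lists were chosen with earlier results of these data known. Lists were described by counts and medians and were not tested as sets. From each list, up to 4 genes by adjusted p and up to 2 by level were named, with genes left untested where they define the list, the neighbours of PDGF genes and, for each receptor, the 3 genes most alike to it (mean log2 CPM no lower than 1). Plat, Plau, Nrp2, Spry2, Spry4, Ccl2, Ccl7, Ier3, Smtn, Dcn and Col3a1 were named after their values were seen. The same holds for C1qa, C1qb, Spi1, Cx3cr1, Trem2 and, as a macrophage marker, Csf1r. Results of some genes under this rule are not reported here. Alternatives were other scalings, filters, tests and fold thresholds, each library left out, a block for the replicate number, and another transcript length.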

Additional observations from a re-analysis of the deposited data

How the results depend on the processing

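Of the 7 PDGF genes, 3 passed both thresholds and 4 the adjusted p. Tested against a 1.5-fold change, 1 passed both thresholds and 1 the adjusted p, and 1 passed a 2-fold threshold, in each case Pdgfb, whose direction the filter on low counts had fixed. Leaving out each library in turn gave 2 to 3 genes past both thresholds and 4 to 5 past the adjusted p, the fifth being Pdgfra without mutant replicate 2. Pdgfb could not be tested with at least 10 counts in every library. Deviations from the group means correlated at 0.04, 0.04 and 0.01 between WT and mutant libraries of equal replicate number. For unequal numbers they correlated at -0.037 to 0.0046. The values for equal numbers were the highest but small, and they cannot decide whether the replicate numbers pair the libraries. With the replicate number as a block, 2 genes passed both thresholds, since Pdgfrb came to 0.58 on the log2 scale, and 4 the adjusted p. The block also ended the calls of Thbs1 (adjusted p 0.148), Nrp2 (0.0580) and Cbl (0.0651).

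With the median transcript as length, WT levels were 13.3 CPM per kilobase for Pdgfa, 0.322 for Pdgfb, 12.7 for Pdgfd and 53.0 for Pdgfra. The log2 fold change of Pdgfc reversed to 0.019 with upper quartile scaling and 0.0095 with total counts, and ran from -0.096 to 0.028 without single libraries. Without single libraries, Sparc ran from -0.0091 to 0.13, Gp1bb from -0.20 to 0.32, Krt18 from -0.072 to 0.20, Krt19 from -0.43 to 0.061, Col3a1 from -0.45 to 0.28, Plat from -0.59 to 0.17 and Plau from -0.13 to 0.22. Col3a1 was also at -0.091 with limma voom and -0.092 with the block. The cause was not tested. DESeq2 ended the calls of Dcn (adjusted p 0.0827), Cdh5 (0.131), Cbl (0.0785) and Nrp2 (0.0708), limma voom that of Cdh5 (0.0599), and no filter those of Thbs1 (0.0554), Cbl (0.0736) and Nrp2 (0.0859). Tested by edgeR against a 1.5-fold change, 35 of the 86 named genes with a test lost their call. Among them were Stat3 (adjusted p 0.417), Nrp1 (0.605), Nck1 (0.955), Ccl2 (0.474) and Plaur (0.295), whose estimates had passed 1.5-fold. Over all genes, 1865 were higher and 957 lower past both thresholds, against 1102 and 318 at 2-fold and 1080 and 413 tested against 1.5-fold. The early genes kept 12 to 18 lower calls over all alternatives. The median log2 fold change of all genes was 0.0048 to 0.043 over the scalings. The 3 or 4 WT counts limit the precision of Pdgfb.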

Other observations

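Genes next to the PDGF genes in the RefSeq annotation of GRCm38.p6 were looked up. Csf1r follows Pdgfrb in the genome, and the pair differed in size of change, at log2 fold changes of 4.31 and 0.59. Pdgfrl lies between Slc7a2, a transporter of cationic amino acids, and Mtus1, a microtubule-associated protein. Slc7a2 rose by 0.88 (adjusted p 9.57e-04) and Mtus1 fell by 0.39 on the log2 scale (adjusted p 0.0084), whereas Pdgfrl overlapped between the genotypes. Slc7a2 had 622, 999 and 778 counts in mutant replicates 1, 2 and 3, in the same order of libraries as Pdgfrl with 83, 124 and 99. Prkar1b, beside Pdgfa, was at 0.11 on the log2 scale (adjusted p 0.284). Ddi1, inside Pdgfd, had at most 1 count in any library. Without stranded counting, reads of overlapping genes cannot be told apart.

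Over the 6 libraries, the log2 CPM of Pdgfra was most like that of Herc1 (Pearson r 0.996), Mest (0.996) and Zranb3 (0.987), and that of Pdgfrb most like that of Tnfrsf1a, Pbxip1 and Inhbb, all at 0.999. The 6 points fall into the genotypes, and the genes most like Pdgfrb were themselves higher in the mutant, with log2 fold changes of 0.39, 0.60 and 1.26, whereas Herc1, Mest and Zranb3 did not pass the test (adjusted p 0.619, 0.294 and 0.561). The genes were picked for the highest values, which are descriptions.

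Epithelial and neural markers were also counted. Of 8 epithelial markers 2 were tested and neither passed, Krt18 at a log2 fold change of 0.04 and Krt19 at -0.22. Gp1bb, a platelet marker, was at 0.05. Of 8 oligodendrocyte precursor and neural markers 5 were tested, with 3 higher and 2 lower past both thresholds. Among all tested genes 14.3% were higher and 7.32% lower past both. The 3 higher calls fell to 0 without WT replicate 1, WT replicate 2 or mutant replicate 3 and to 1 without WT replicate 3 or mutant replicate 1. Tubb3 and Map2, neuronal cytoskeleton genes, fell by 1.00 and 1.18 on the log2 scale. Olig1 and Olig2, which define the PDGFRα-bearing precursors of oligodendrocytes, had at most 2 counts in any library.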
